A study of Arabidopsis thaliana with 12 samples.

Results

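The genes described here were those whose signal was higher in replicate series 2 than in replicate series 1 of every plant line in an Arabidopsis thaliana array experiment. They were chosen by a measured value. A probe set, the group of oligonucleotides that reads one transcript on the array, was a member when its log2 signal was above 4 on at least 2 of the 12 arrays and its series 2 minus series 1 difference was at least 1.2 log2 in each of the 6 plant groups. Control probe sets were not considered, and 2 of the 212 probe sets that met the rule were left out. These read HYH, a basic leucine zipper factor of light signalling close to HY5, and UGT78D2, a flavonoid glucosyltransferase. The remaining 210 probe sets were 1.82% of the 11561 tested.

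Transcripts were measured on 12 Affymetrix ATH1 arrays of the aerial parts of untreated plants, with 2 arrays per group. The groups were S14-150, S15-118, S58-2, S82-2, the mutant aba3-1 and wild type (wt). The labels describe a search for recessive suppressors of aba3-1, a mutant short of the hormone abscisic acid (ABA), among plants whose leaves no longer looked cold in infrared images. The 4 lines were taken to be these suppressors and to carry aba3-1 as well, since no label states the genotype of each line. All plants were raised on compost at 21 °C in short days (8 h of light, 16 h of darkness), and each array received label from 20 µg of amplified RNA. Plant age, the wild-type accession, the number of plants per sample and the site of each suppressor mutation are not given in the labels used here.

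The number at the end of each sample name, 1 or 2, defines the replicate series. No label says whether it marks a harvest, an hour, a growth run or a hybridisation, so what sets the series apart cannot be told from the labels. The extracted RNA was 5.1 to 12.1 µg per sample in series 2 (median 10.9) and 8.4 to 15 µg in series 1 (median 10.4), and these ranges overlap. In RNA of whole shoots, fewer cells of a type and less RNA per cell cannot be told apart.

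ABA closes stomata in dry conditions, and mutants that cannot make it lose water and have cool leaves. Many leaf transcripts also follow the time of day, light, temperature, sugar supply and touch, through phytochromes and cryptochromes, the circadian clock and hormones such as cytokinin, jasmonate and auxin.

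Of the 210 members, 92 are paired with 1 gene in the tables at hand and 118 with none. The 92 probe sets read 91 loci, since AT5G54130 has 2 of them. Of these loci 90 are annotated as protein coding and 1, AT3G15310, as a pseudogene. The loci are spread over the 5 chromosomes, with 21, 19, 17, 14 and 20 on chromosomes 1 to 5. A few lie close together in gene order: AT4G27652 and AT4G27657 have 1 gene between them, as do AT3G56260 and AT3G56290.

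The series difference was large in relation to its variation between groups. Its mean over the 6 groups had a median of 2.20 log2 over the members, a 4.59-fold difference, and ran between 1.33 and 5.60 log2. It was over 2 log2 in 137 members, over 3 in 45 and over 4 in 16. The SD of the 6 differences of a member had a median of 0.30 log2. These values chose the members, so they are a description with no test.

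All 6 series 2 arrays lay above all 6 series 1 arrays in each of the 210 members. This separation follows in large part from the rule and was not counted over all tested probe sets. The median signal of the members was 7.64 log2 in S14-150, 7.57 in S15-118, 7.39 in S58-2, 7.59 in S82-2, 7.57 in aba3-1 and 7.84 in wt in series 2. In series 1 it was 5.21 log2 in S14-150, 5.13 in S15-118, 4.91 in S58-2, 5.24 in S82-2, 5.21 in aba3-1 and 5.24 in wt. Within each series wt was highest or shared the highest value, and S58-2 was lowest. The median over all tested probe sets was between 5.72 and 5.77 log2 on every array. GCRMA normally equalizes the arrays, so these medians do not show whether the arrays as a whole differed before it.

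Many members were near the lower limit of the signal in series 1. All 6 series 1 arrays were at or under 4 log2 in 34 members, and 131 members were above 4 on all 12 arrays. A fold difference of a member at that limit is compressed by the limit itself. By the same rule in the other direction, 152 probe sets (1.31% of those tested) were lower in series 2. The difference was above 0 in all 6 groups for 19.6% of the tested probe sets and below 0 in all 6 for 23.3%, with a median over all of them of -0.03 log2.

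**Figure D1:**
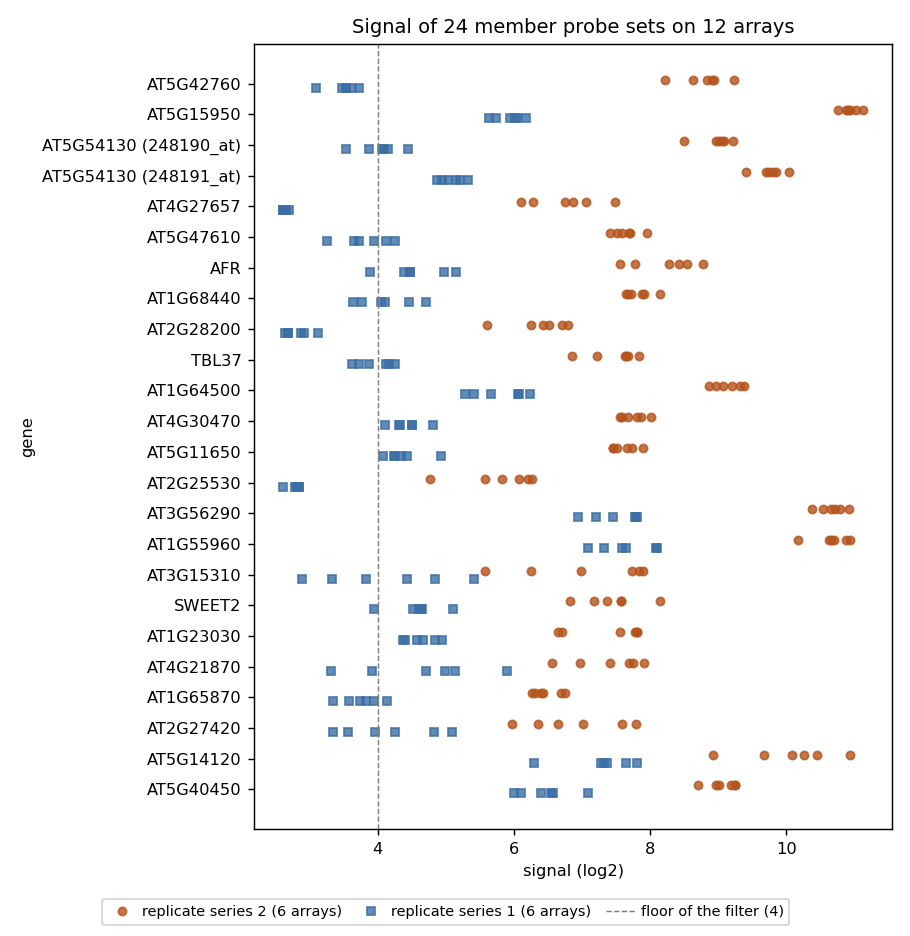
Log2 signal (horizontal axis) of the 24 members paired with 1 gene that had the largest median series difference, one row per probe set, on the 6 arrays of replicate series 2 (circles) and the 6 of replicate series 1 (squares); the dashed line is the floor of 4 log2. In every row all circles lie to the right of all squares, and AT5G42760 has the widest separation, with a mean difference of 5.30 log2.

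The member with the largest difference has no gene in the tables, and the next ones that have a gene are enzymes and a calcium-binding protein. AT5G42760, a member of a methyltransferase family, had 8.22, 8.88 and 9.23 log2 (lowest, median and highest array) in series 2, against 3.10, 3.53 and 3.72 log2 in series 1, a mean difference of 5.30 log2 or 39.4-fold. AT5G15950, an S-adenosylmethionine decarboxylase that makes the aminopropyl donor for polyamines, had 10.75 to 11.13 log2 in series 2, against 5.63 to 6.17 log2 in series 1 (5.01 log2, 32.3-fold). Polyamines are known to repress translation of its messenger through a small upstream reading frame.

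AT5G54130 belongs to a calcium-binding family related to phosphatases and was read by 2 probe sets. The first had 8.50, 9.04 and 9.21 log2 in series 2, against 3.53, 4.08 and 4.44 log2 in series 1. The second had 9.41, 9.77 and 10.04 log2 in series 2, against 4.87, 5.09 and 5.33 log2 in series 1. Their mean differences, 4.95 and 4.67 log2, were alike, while their signals were not, as different probes of a transcript need not be equally bright.

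The members with a known role fall into classes that were drawn up after the members were known. Of the 91 loci, 46 were placed in a class, and 45 have no role that could be stated with certainty. The classes had like sizes of difference, with medians between 1.72 log2 (transporters) and 2.75 log2 (ubiquitin ligases). None of the 92 members paired with a gene is on the 23 lists of pathway and marker genes set out further on. The 118 members with no gene could not be checked against the lists.

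The class of signalling and light genes had 6 loci, and AT5G54130 with its 2 probe sets was counted in it. AFR, an F-box protein that promotes phytochrome A signalling in far-red light, had 7.56, 8.35 and 8.77 log2 in series 2, against 3.88, 4.48 and 5.15 log2 in series 1, a mean difference of 3.66 log2. AT3G52740 encodes an inhibitor of the blue-light receptors, the cryptochromes, and its transcript is known to be induced by light. It had 7.53 to 8.10 log2 in series 2, against 5.25 to 6.09 log2 in series 1.

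RR16 is a type-A response regulator, a class that cytokinin induces and that dampens cytokinin signalling. Its difference was 1.90 log2, and the arrays of each series were spread widely, over 5.60 to 7.27 log2 in series 2 and 3.98 to 5.35 log2 in series 1. The protein phosphatase 2C AT3G62260 differed by 1.98 log2, and SRC2, a C2 domain protein named for its response to cold, by 1.66 log2.

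There were 5 transcription factors. AT2G28200, a C2H2 zinc finger protein, had 5.60, 6.47 and 6.79 log2 in series 2, against 2.64, 2.78 and 3.12 log2 in series 1, where all 6 arrays were under the floor. GIS, a C2H2 zinc finger that links gibberellin to the initiation of leaf and stem hairs, differed by 2.04 log2. MYC4, one of the basic helix-loop-helix factors of the jasmonate response, had 7.95 to 8.52 log2 in series 2, against 6.19 to 6.76 log2 in series 1.

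Another basic helix-loop-helix factor, bHLH34, which takes part in the response to iron deficiency, differed by 2.24 log2. AT1G70000, a MYB-related protein, differed by 2.06 log2 on average and by 1.2 log2 in its weakest group, which placed it at the edge of the rule. AT1G61890 and a member with no gene also had a weakest group of 1.2 log2. Just outside were AT4G16490, AT2G47440 and a probe set with no gene, each with a weakest group of 1.19 log2 and with median differences of 1.35, 1.70 and 1.55 log2.

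Ubiquitin ligases were represented by the RING finger protein AT5G47610, the U-box protein AT1G23030 and the RING finger protein AT1G10650. AT5G47610 had 7.41, 7.64 and 7.96 log2 in series 2, against 3.26, 3.83 and 4.26 log2 in series 1, a mean difference of 3.82 log2. AT1G23030 differed by 2.75 log2 and AT1G10650 by 1.40 log2.

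Of the 9 transporters, 4 belong to the MATE family, which exports metabolites and toxins in exchange for protons or sodium. These were AT1G33110, AT3G21690, AT1G61890 and AT5G65380, and their mean differences were alike, between 1.44 and 1.72 log2. SWEET2, a sugar transporter of the vacuole membrane, differed more, with 6.82, 7.47 and 8.15 log2 in series 2, against 3.95, 4.62 and 5.11 log2 in series 1. AT5G14120, of the major facilitator superfamily, had 8.92 to 10.94 log2 in series 2, against 6.30 to 7.80 log2 in series 1. The others were AT3G56200 of an amino acid transporter family (2.21 log2) and AT2G36630 and AT1G61740 of the TauE/SafE family (2.19 and 1.65 log2).

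Glutaredoxin-family proteins, small thiol proteins of which several act with transcription factors, gave 4 loci. AT1G64500 had 8.86, 9.14 and 9.37 log2 in series 2, against 5.28, 5.87 and 6.24 log2 in series 1. AT2G30540, AT4G33040 and AT1G06830 differed by 2.45, 2.23 and 1.94 log2, and the first pair was under the floor of 4 log2 on all series 1 arrays.

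Cell wall genes were TBL37 and TBL45, of the trichome birefringence-like family that acetylates wall polysaccharides, the xyloglucan endotransglucosylase EXGT-A3 and the dirigent-family gene AT1G65870. TBL37 had the largest difference of these, with 6.85, 7.64 and 7.84 log2 in series 2, against 3.62, 4.0 and 4.26 log2 in series 1. The differences of TBL45, EXGT-A3 and AT1G65870 were 1.76, 1.61 and 2.71 log2.

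Enzymes of metabolism were the most numerous class, with 13 loci. Besides AT5G42760 and AT5G15950 they included IAGLU, which joins glucose to the auxin indole-3-acetic acid (2.05 log2), and AAH, an allantoate amidohydrolase that recovers nitrogen from purines (2.17 log2). The cinnamoyl-CoA reductase-like AT4G30470 and AT5G14700 differed by 3.32 and 1.71 log2. AT5G11650, an alpha/beta hydrolase, had 7.45 to 7.89 log2 in series 2, against 4.08 to 4.93 log2 in series 1. The remaining ones were between 1.85 and 2.04 log2.

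The defence class held only AT1G66100, a thionin, and AT2G27420, a papain-type cysteine protease. Their differences were 2.14 and 2.72 log2, and both also differed between genotypes, as given below. Among the genes outside the classes, AT4G27657 had 6.11, 6.81 and 7.49 log2 in series 2, against 2.61, 2.63 and 2.70 log2 in series 1. AT4G21870, a protein like the small heat shock proteins, differed by 2.72 log2, and AT1G55960, a lipid-binding START domain protein, by 3.03 log2. AT2G25530 (2.99 log2) encodes an ATPase of the AFG1 type, and AT5G40450 (2.61 log2) a protein needed for normal vacuoles. AT3G56290 and AT1G68440, with no role stated here, differed by 3.17 and 3.71 log2.

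**Figure D2:**
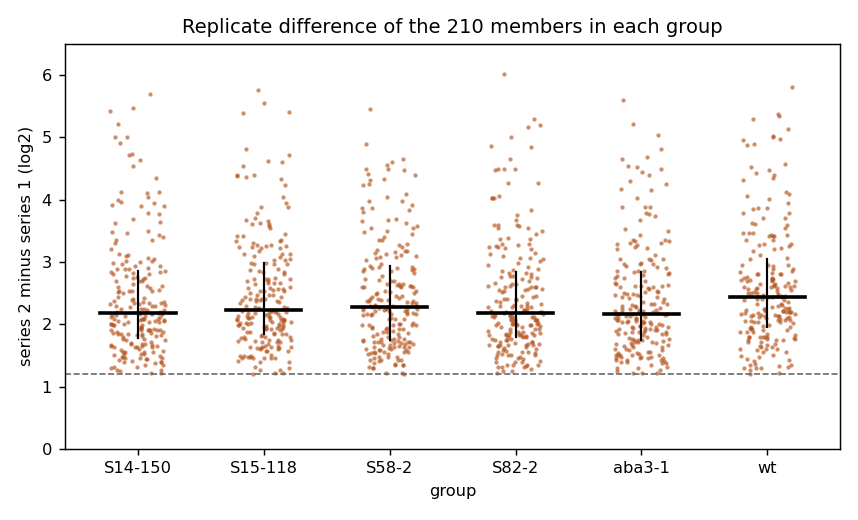
Series 2 minus series 1 difference in log2 signal (vertical axis) of the 210 members in each of the 6 groups (horizontal axis). Each point is a probe set, thick bars are medians, thin vertical bars span the first to the third quartile, and the dashed line is the threshold of 1.2; the median is highest in wt, at 2.43 log2, and between 2.17 and 2.28 in the other 5 groups.

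The difference was of about the same size in all 6 groups. Its median over members was 2.18 log2 in S14-150, 2.24 in S15-118, 2.28 in S58-2, 2.19 in S82-2, 2.17 in aba3-1 and 2.43 in wt. The largest of the 6 differences of a member was in wt for 65 members and in S58-2 for 48. The smallest was in S58-2 for 51 members and in wt for 14. With 1 array per group and series, these values have no error of their own.

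Of the 23 lists, drawn up from textbook roles and with 213 loci, only 23 loci had a tested probe set, because most loci have no probe set paired with them here. On the cold regulon list, genes of cold acclimation, 4 of 5 tested genes were lower in series 2 in all 6 groups. COR15A, which protects chloroplast membranes in frost, had a median difference of -1.96 log2, COR15B -2.05, LTI30 -2.24 and COR47 -0.50. The zinc finger gene STZ was higher in series 2 in all 6 groups (1.33 log2).

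Both tested clock genes were lower in series 2 in all 6 groups. Their median differences were -3.04 log2 for CCL and -0.89 log2 for GI, an evening-phased clock gene. The other loci among the 22 on the clock list have no probe set paired with them here, so their direction is not shown. Whether any of them is among the members with no gene cannot be told here. XERICO, which raises ABA content, had -2.06 log2, and the glucosinolate gene BCAT4 -1.43. Flavonoid genes were mixed. CHIL and UGT78D1 had 1.00 and 0.77 log2, and DFR, which leads to anthocyanins, had -2.15 log2, UGT79B1 -1.48 log2 and UGT75C1 -0.44 log2. Of the defence genes, PDF1.2 had -0.35 log2, GRX480 -0.34 log2 and WRKY53 -0.14 log2. In the paired F test over the 6 genotypes, described below, 4 of 5 cold genes, 2 of 5 flavonoid genes and all 3 of these defence genes were called, and neither clock gene was. The share over all tested probe sets was 14.1%, and these few genes are not a test of their lists.

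The photosynthesis genes LHCB4.2, PSAN and RCA had median differences of -0.11, 0.15 and 0.22 log2, small beside the differences of the members. Of the markers of other cell types only GC1 (guard cells), TRY (trichomes) and PYK10 (roots) could be tested, with 0.08, 0.37 and -0.31 log2. The paired F test over genotypes called TRY (adjusted p = 0.002) and PYK10 (adjusted p = 0.0254), both by limma, and not GC1. The part of these cell types in the genotype results was not tested. FAMA (guard cells), EXPA7 and EXPA18 (root hairs) and CLV3 (shoot meristem) were under the floor, so root hair and meristem markers gave no signal in these shoot samples. None of the 64 control probe sets met the rule in either direction, but smaller differences were present. An actin control read at its 3′ end had 10.09 to 10.65 log2 in series 2, against 11 to 11.42 log2 in series 1. For a ubiquitin control the ranges overlapped, with 11.15 to 11.88 log2 in series 2 and 11.32 to 11.85 log2 in series 1.

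Genotype was then compared, a measure that averages over both series and that the rule did not choose on. The rule does force a wide spread within each group, and in the fit with group alone (limma, 6 residual degrees of freedom) that spread is the error. No member was called in any comparison of that fit, at an adjusted p under 0.05, nor did any reach an unadjusted p under 0.05. Among all tested probe sets the F test over the 6 groups called 1.3%. The comparison with wt called 0.0605% for S14-150, 1.38% for S15-118, 3.23% for S58-2, 0.00865% for S82-2 and 0.45% for aba3-1. The comparison with aba3-1 called 0.0173% for S14-150, 0.0346% for S15-118, 0.00865% for S58-2 and 0.502% for S82-2.

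The replicate numbers pair the arrays, as set out with the processing, so the fit with the number as a block is given beside it. There the error of a member is the spread of its 6 series differences. The rule bounds each of these differences from below, so this error is not independent of the rule. How far this alters the shares of members called was not tested. All called counts, changes and adjusted p-values that follow are from this paired limma fit, with Benjamini-Hochberg adjustment over the 11561 probe sets. The comparisons with wt share the wt arrays, and those with aba3-1 share the aba3-1 arrays.

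The F test over the 6 groups called 55 of 210 members (26.2%), against 14.1% of all tested probe sets, and 28 of the 55 have a gene. The range of the 6 group means had a median of 0.68 log2 in members and 0.50 log2 over all tested probe sets. It was at least 1 log2 in 41 members. The highest group mean was that of wt in 93 members, and the lowest that of S58-2 in 113. The counts of 41, 93 and 113 were not made over all tested probe sets, so they are not shown to be particular to the members. Without 1 array of S58-2 the F count and the share of all tested probe sets called were both higher. Without 1 array of any other group both were lower. Without the filter on low values, with adjustment over 22746 probe sets, the counts were lower. They were then 19 (9.05%) in the F test, against 3.14% of the 22746 probe sets. Against wt they were 0 in S14-150, 22 in S15-118, 52 in S58-2, 0 in S82-2 and 6 in aba3-1. The shares of the 22746 called against wt were 0.0879%, 4%, 8.68%, 0.0747% and 0.659% in the same order.

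**Figure D3:**
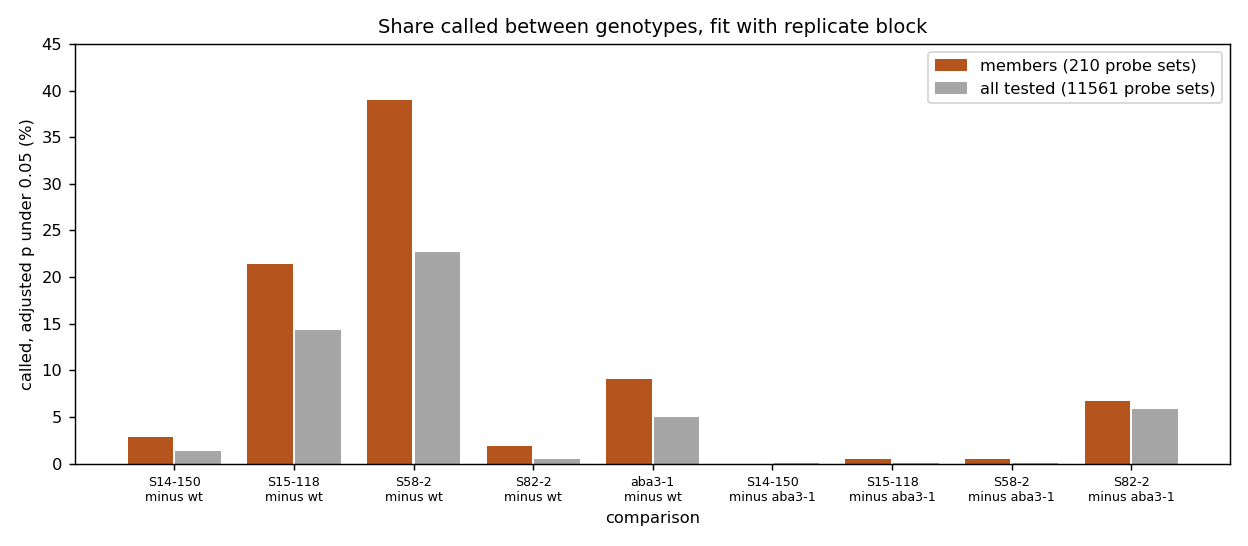
Share of probe sets called (vertical axis, percent, adjusted p under 0.05, limma with the replicate number as a block) in the 9 comparisons between groups (horizontal axis), for the 210 members (left bar of each pair) and all 11561 tested probe sets (right bar). The highest bar is that of the members in S58-2 minus wt, at 39%, beside 22.7% for all tested probe sets.

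Of the 5 comparisons with wt, that of S58-2 had the most members called. Of the 210 members 74 fell and 8 rose in S58-2, 39% in all, against 22.7% of the tested probe sets (12.2% lower, 10.5% higher). The median change of the members was -0.44 log2 over both series, -0.56 in series 2 and -0.33 in series 1, and the median over all tested probe sets was -0.03 log2. Lower values in both series were found in 141 members (67.1%), against 35.0% of all tested probe sets. For the 152 probe sets that were lower in series 2, the median change in S58-2 was -0.10 log2. In the other groups the medians of the members and of those 152 probe sets lay closer: -0.15 and -0.12 log2 in S14-150, -0.30 and -0.21 log2 in S15-118, and -0.24 and -0.19 log2 in aba3-1, each against wt. In S82-2 they were -0.11 and 0.12 log2. The differences between the 2 sets were not tested. Without wt replicate 2 the count was 33 members, of which 31 were lower, and 9.45% of the tested probe sets were then called.

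Single arrays stood apart in control probe sets. The 25S ribosomal RNA control had 3.77 log2 on the S58-2 array of series 1, against 7.32 to 9.46 log2 on the other series 1 arrays. On the S58-2 array of series 2 it had 7.62 log2, within the 7.19 to 9.78 log2 of that series. A spiked-in control transcript, dap, read at its 3′ end, was lowest on the S58-2 array in series 2, with 6.64 log2 against 7.26 to 7.76 log2 on the others. In series 1 it was lowest on the S15-118 array, with 5.73 log2 against 6.94 to 7.83 log2 on the others. The part of these arrays' quality in the results of S58-2 and S15-118 was not tested.

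**Figure D4:**
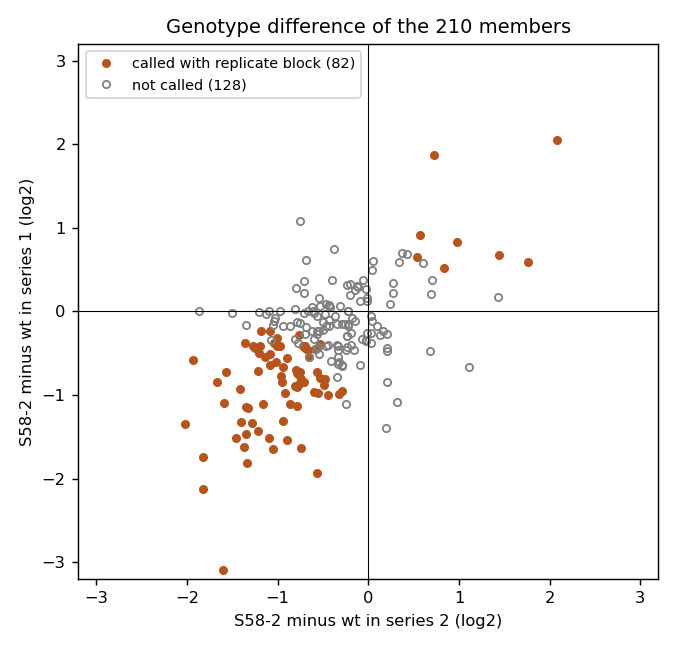
Log2 difference between S58-2 and wt for each of the 210 members in series 2 (horizontal axis) and in series 1 (vertical axis); filled points are the 82 members called in the paired fit and open points the other 128. Most points, 141 members, lie at the lower left, where both differences are below 0.

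The thionin gene AT1G66100 had 9.72 log2 in series 2 and 7.57 in series 1 in S58-2, against 11.54 and 9.70 log2 in wt, and fell by 1.98 log2 (SE 0.28, adjusted p = 0.00112). The protease gene AT2G27420 had 5.97 and 3.35 log2 in S58-2, against 7.79 and 5.09 log2 in wt, a fall of similar size (-1.78 log2, SE 0.17, adjusted p = 0.000176). AT5G14120 of the major facilitator superfamily had 8.92 and 6.30 log2 in S58-2, against 10.94 and 7.65 log2 in wt (-1.69 log2, SE 0.20, adjusted p = 0.000508). In each of these genes S58-2 lay below wt within the same series, while the arrays of the 2 groups overlapped when both series were pooled.

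AT5G03120 changed by -1.58 log2 (adjusted p = 0.00336). Also lower, and chosen after their values were seen, were the GDSL lipase gene AT3G48460 (-1.49 log2, adjusted p = 0.000164), AT3G05900 (-1.37 log2, 0.000675) and AT1G04040, an acid phosphatase gene (-1.35 log2, 0.00476). SWEET2 had 6.82 and 3.95 log2 in S58-2, against 8.15 and 5.11 log2 in wt, and fell by 1.25 log2 (adjusted p = 0.0006).

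Fewer members rose in S58-2. The glutaredoxin gene AT4G33040 had 6.44 log2 in series 2 and 3.55 in series 1 in S58-2, against 4.68 and 2.96 log2 in wt (1.18 log2, SE 0.25, adjusted p = 0.00904). Its series 1 values were all under the floor, so the change rests mainly on series 2. AT1G80130 rose by 0.74 log2 (adjusted p = 0.0171) and AT1G21050 by 0.68 log2 (adjusted p = 0.0447).

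By class, the falls in S58-2 were spread over roles. They took in all 3 ubiquitin ligases, both defence genes, 5 of 13 metabolic enzymes, 3 of 9 transporters, 2 of 5 transcription factors (AT2G28200 and GIS), 2 of 4 cell wall genes (TBL45 and EXGT-A3) and 2 of 4 glutaredoxins (AT2G30540 and AT1G06830). Among the 7 probe sets of the class of signalling and light, AFR, AT3G52740 and RR16 fell. Cytokinin-induced RR16 had 5.60 and 3.98 log2 in S58-2, against 7.27 and 4.82 log2 in wt (-1.26 log2, adjusted p = 0.00324). AFR fell by 0.86 log2 (adjusted p = 0.0199) and AT3G52740 by 0.65 log2 (adjusted p = 0.0201). Beside these stand the 12 of 45 members with a gene and no class that fell, the 74 of all 210 members, and the 12.2% of all tested probe sets that were lower. No class was tested against the others.

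**Figure D5:**
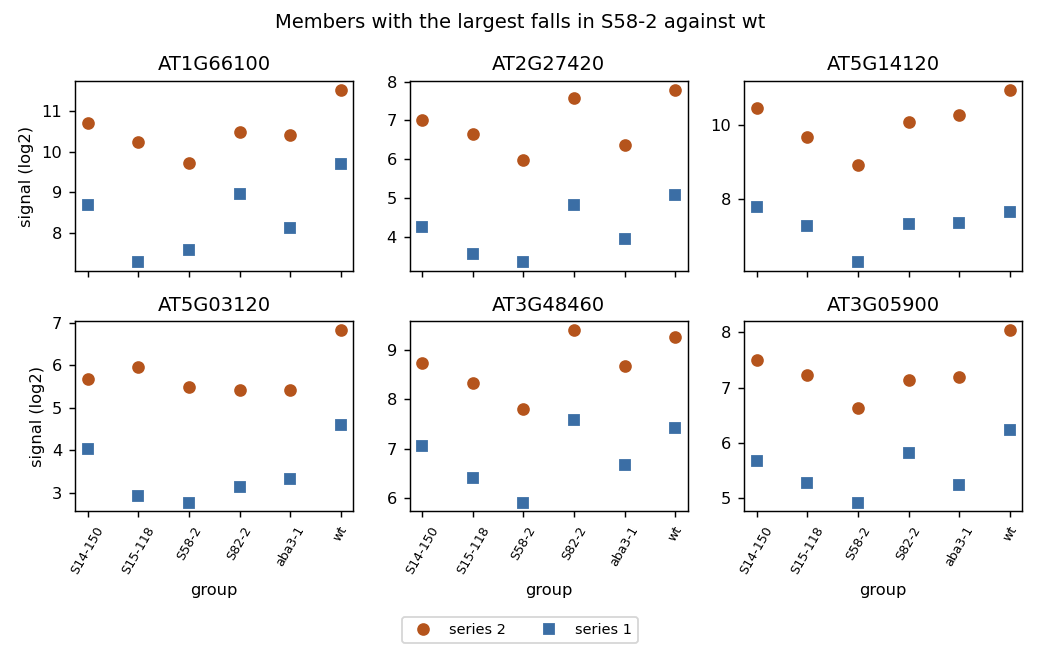
Log2 signal (vertical axis) of the 6 members with a gene that fell most in S58-2 against wt, in each group (horizontal axis), on the array of series 2 (circle) and of series 1 (square). In all 6 panels the S58-2 symbols lie below the wt symbols of the same series, and series 2 lies above series 1 in every group.

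S15-118 followed with 39 members that fell and 6 that rose against wt, 21.4% in all, against 14.3% of all tested probe sets (6.89% lower, 7.45% higher). The median change of the members was -0.30 log2. The count depended on single arrays: it was lower without 1 S15-118 array or wt replicate 2 and higher without 1 S58-2 array. The share of all tested probe sets called moved in the same directions. The pseudogene AT3G15310 had 5.58 and 2.89 log2 in S15-118, against 7.84 and 4.43 log2 in wt (-1.90 log2, SE 0.21, adjusted p = 0.000561). Its series 1 value in S15-118 was under the floor of 4 log2. AT1G66100 fell by 1.87 log2 (adjusted p = 0.00257) and the MATE gene AT1G61890 by 1.36 log2 (adjusted p = 0.00191). The only named rise was that of AT4G21870, with 7.69 and 5.14 log2 in S15-118, against 6.97 and 3.91 log2 in wt (0.98 log2, adjusted p = 0.0436).

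In aba3-1 itself, 15 members fell and 4 rose against wt, 9.05% in all, against 4.98% of all tested probe sets (1.71% lower, 3.27% higher). AT1G66100 had 10.42 and 8.11 log2 in aba3-1, against 11.54 and 9.70 log2 in wt (-1.36 log2, adjusted p = 0.0229). AT5G03120 fell by 1.34 log2 (adjusted p = 0.023) and AT2G27420 by 1.28 log2 (adjusted p = 0.0029). The count was lower without 1 array of aba3-1 or wt, and so was the share of all tested probe sets called. Without both S58-2 arrays 29 members (13.8%) were called, against 8.32% of all tested probe sets.

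The other lines showed few changes against wt. In S14-150, 3 members fell and 3 rose, 2.86% in all, against 1.39% of all tested probe sets (0.675% lower, 0.718% higher). AT1G61890 fell by 1.03 log2 (adjusted p = 0.0336), AT2G30540 by 0.77 log2 (adjusted p = 0.0359), and AT4G21870 rose by 1.38 log2 (adjusted p = 0.0458). The S14-150 count was lower without 1 array of wt, S14-150, aba3-1 or S15-118. The share of all tested probe sets called was lower too, though hardly so without wt replicate 1. Without both S58-2 arrays 15 members (7.14%) were called, against 4.31% of all tested probe sets.

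In S82-2, 4 members fell and 0 rose, 1.9% in all, against 0.467% of all tested probe sets (0.329% lower, 0.138% higher). An unadjusted p under 0.05 was found in 45 members, as many as in S14-150, a count not made over all tested probe sets. The S82-2 count was lower without any 1 array of the groups other than S58-2. The share of all tested probe sets called was then lower too. Of the 4 called members the one with a gene was AT1G61890, with 5.48 and 3.48 log2 in S82-2, against 6.26 and 4.85 log2 in wt (-1.08 log2, adjusted p = 0.0498). AT1G61890 was lower than wt in all 4 lines, and wt had the highest signal of the gene in both series. Most of its series 1 values were near the floor of 4 log2.

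Over the comparisons with wt, 40 members were called in 1, 27 in 2, 15 in 3, 3 in 4 and 1 in all 5. The last was a probe set with no gene, with changes between -0.75 log2 in S15-118 and -1.44 log2 in S82-2. The comparisons share the wt arrays. Calls per number of comparisons were not counted over all tested probe sets, so such overlap is not shown to be particular to the members.

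Few members were called between the lines and aba3-1. S14-150 had 0 members called, against 0.0865% of all tested probe sets. An unadjusted p under 0.05 was found in 13 members, a count not made over all tested probe sets. In S15-118 and S58-2 the only member called was AT3G15310, against 0.0865% and 0.104% of all tested probe sets. It had 5.58 and 2.89 log2 in S15-118 and 6.25 and 3.33 log2 in S58-2, against 7.90 and 5.42 log2 in aba3-1. The changes were -2.43 log2 in S15-118 (SE 0.21, adjusted p = 0.0012) and -1.87 log2 in S58-2 (SE 0.21, adjusted p = 0.0213). Without the filter on low values the S15-118 comparison called 0 members, against 0.0264% of 22746 probe sets. The S58-2 count was lower without an aba3-1 or S14-150 array and higher without S58-2 replicate 1. The share of all tested probe sets called moved in the same directions.

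In S82-2, 7 members rose and 7 fell against aba3-1, 6.67% in all, against 5.86% of all tested probe sets (1.57% higher, 4.29% lower). AT2G27420 had 7.58 and 4.82 log2 in S82-2, against 6.36 and 3.96 log2 in aba3-1 (1.04 log2, SE 0.17, adjusted p = 0.00673). AT2G21560 and AT2G30540 rose by 0.93 and 0.88 log2 (adjusted p = 0.00519 and 0.00643). These genes were lower in aba3-1 than in wt by 1.28, 0.67 and 0.77 log2, a comparison that uses the same aba3-1 arrays. S82-2 minus wt was not called for any of them, in a comparison that called 0.467% of all tested probe sets. Their means were 6.2, 6.06 and 4.715 log2 in S82-2, against 6.44, 5.8 and 4.605 log2 in wt. The series 1 values of AT2G30540 were under the floor of 4 log2.

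Of the members that fell in S82-2 against aba3-1, AT3G15310 changed by -1.26 log2 (adjusted p = 0.00694), AT1G21050 by -0.91 log2 (adjusted p = 0.033) and AT1G68440 by -0.79 log2 (adjusted p = 0.0462). The count was lower without 1 array of aba3-1 or S82-2, and so was the share of all tested probe sets called. Without the filter on low values 6 members were called, against 0.91% of 22746 probe sets. AT3G15310 had the widest range of group means among the members, 2.43 log2 between S15-118 and aba3-1.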

How the data were processed

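Per the submitters' processing notes the authors used GCRMA to make the deposited log2 signals, which cover 22810 probe sets on 12 ATH1 arrays. Its version is not given in the sources used here. No header gives the log base, taken as 2, GCRMA's own scale. The 64 control probe sets were left out, and tests covered the 11561 others with signals above 4 log2 on at least 2 arrays. Gene names came from the platform annotation and RefSeq gene tables (TAIR10.1), and no sequence or promoter was used.

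Members and gene lists were chosen with earlier results of these data known. Group means were fitted with limma 3.58.1 (lmFit, contrasts.fit, eBayes) in R 4.3.3 over all 12 arrays, with Benjamini-Hochberg adjustment and calls at an adjusted p under 0.05. The script was tested on simulated data. No label says that the 2 arrays of a group are separate plants, so p-values reflect the spread between these samples alone, possibly technical ones, with a precision limited by the number of arrays. The replicate numbers pair the arrays, a pairing that comes from the data: arrays with equal numbers deviated together from their group means in all 15 pairs of groups. Pearson's r over probe sets, which are not independent replicates, was 0.708 to 0.872, and 0.563 to 0.797 without the members and the probe sets lower in series 2. The paired fit adds the number as a block (5 residual degrees of freedom).

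Genes were named when among the 24 members paired with 1 gene of largest median difference, when among up to 3 per direction and comparison of largest called change, or when nearest the threshold. Members of the role classes were named after their values were seen. Alternatives were other thresholds, filters and scalings, the block, and leaving out each array or both S58-2 arrays. A planned count of promoter motifs was not run.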

Additional observations from a re-analysis of the deposited data

How the results depend on the processing

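The number of members was 281 at a threshold of 1.0 and 154 at 1.5, 207 with a floor of 5 log2, 210 without a filter, 219 with arrays centred on their medians and 214 after quantile normalization. Rules over the 5 remaining groups without 1 array gave 213 to 239. The fit without a block called 0 members in all 10 tests, and with the replicate block 55 were called in the F test. In the same paired fit 6, 45, 82, 4 and 19 were called for S14-150, S15-118, S58-2, S82-2 and aba3-1 against wt, and 0, 1, 1 and 14 for the 4 lines against aba3-1. Leaving out the filter on low values raises the number of probe sets adjusted over to 22746. The paired fit then called 19 members in the F test, and 3.14% of the 22746. Against wt it called 0, 22, 52, 0 and 6 members in the same order. The shares of the 22746 were 0.0879%, 4%, 8.68%, 0.0747% and 0.659%. Against aba3-1 it called 6 members for S82-2 and 0 for S15-118, and 0.91% and 0.0264% of the 22746. Without both S58-2 arrays the paired fit called 15 members for S14-150, 70 for S15-118 and 29 for aba3-1, each against wt. The shares of all tested probe sets were then 4.31%, 23.3% and 8.32%. Under quantile normalization and under median centring, 2 were called for S82-2 against wt, beside 0.32% and 0.337% of all tested probe sets. Leaving out 1 array at a time gave 29 to 74 in the F test, 0 to 15 for S14-150, 13 to 69 for S15-118, 33 to 85 for S58-2, 0 to 6 for S82-2 and 1 to 29 for aba3-1 against wt, and 0 to 12 for S58-2 and 1 to 21 for S82-2 against aba3-1. The cause of these shifts was not tested, beyond the smaller number of arrays.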
